A study of Mus musculus with 35 samples.

Results

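The secreted Wnt antagonists are 9 genes, *Sfrp1*, *Sfrp2*, *Sfrp4*, *Sfrp5*, *Dkk1*, *Dkk2*, *Dkk3*, *Wif1* and *Frzb*, out of 53465 genes counted in sorted tumor cells of mouse pancreatic ductal adenocarcinoma (PDAC). They were chosen by gene symbol, as a family, and read in all 35 libraries. The choice was made with earlier results of these data known, so counts of members called do not come from a blind choice. The only measured value in the rule is the total count, which picks 1 identifier where a symbol has several, and none of the 9 symbols had more than 1. The KC-shSmad4 tumor cells carry, among other alleles, Ptf1a-Cre, an mKate2 reporter with the rtTA3 transactivator at Rosa26, and a doxycycline-inducible, GFP-linked *Smad4* shRNA at *Col1a1*, so Cre was driven in the pancreatic lineage. They grew in 6- to 8-week-old female Foxn1nu mice, which lack a thymus, after injection into the pancreas (primary tumor), the spleen (liver metastasis) or the tail vein (lung metastasis). All hosts received doxycycline chow. By their labels, Smad4OFF libraries came from hosts kept on it, and Smad4ON libraries from hosts taken off it 4 weeks (pancreas), 5 weeks (liver) or 6 weeks (lungs) after injection, with mKate2+ cells sorted on day 7 or day 14. The labels do not say which shRNA or which parental line each library came from.

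Wnt proteins are secreted lipid-modified ligands that bind Frizzled receptors, and with the co-receptors Lrp5 and Lrp6 they stabilize beta-catenin, which turns on target genes with TCF/LEF factors. The secreted antagonists act outside the cell in different ways. The Sfrp proteins, with *Frzb* (also named Sfrp3), carry a cysteine-rich domain like that of Frizzled and bind Wnt ligands, as does *Wif1* through its own WIF domain, while *Dkk1* and *Dkk2* bind Lrp5 and Lrp6. *Dkk3* is a divergent Dickkopf protein with no settled action on these co-receptors. In PDAC, Wnt antagonists are made by carcinoma cells and by stromal cells, and *Sfrp2* and *Sfrp4* are widely known as genes of fibroblasts.

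*Dkk2* and *Sfrp2* had the most counts of the family in all 35 libraries between them: *Dkk2* was the highest member in 31 libraries and *Sfrp2* in 4. RefSeq gives a start site for both, and the 250 bases before it are shown because these are the members on which most of the comparisons turn. Capitals mark CAGAC or its complement GTCTG, the core sequence that SMAD proteins bind, and CTTTGAT or its complement ATCAAAG, a TCF/LEF sequence. Both genes are on the plus strand of chromosome 3, *Sfrp2* (ENSMUSG00000027996) at chr3:83766321-83774316 and *Dkk2* (ENSMUSG00000028031) at chr3:132085292-132180304. The windows are on the plus strand of GRCm38.p6, at chr3:83766071-83766320 for *Sfrp2* and chr3:132085042-132085291 for *Dkk2*.
Sfrp2: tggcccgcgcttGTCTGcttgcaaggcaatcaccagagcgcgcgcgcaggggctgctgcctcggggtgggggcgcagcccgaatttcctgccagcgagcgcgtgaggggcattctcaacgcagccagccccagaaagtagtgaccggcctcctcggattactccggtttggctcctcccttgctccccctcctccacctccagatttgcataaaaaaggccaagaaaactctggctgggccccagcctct
Dkk2: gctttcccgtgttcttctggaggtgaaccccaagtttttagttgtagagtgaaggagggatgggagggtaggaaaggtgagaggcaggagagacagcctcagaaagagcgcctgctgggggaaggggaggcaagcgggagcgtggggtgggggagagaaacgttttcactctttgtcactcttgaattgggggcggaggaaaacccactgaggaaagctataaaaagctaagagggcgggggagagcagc
The *Sfrp2* window held 1 GTCTG, starting 238 bases before the start site, and no TCF/LEF sequence, and the *Dkk2* window held neither. Of 32851 windows of the same length in the RefSeq table, 42.2% held CAGAC on either strand and 3.21% held CTTTGAT on either strand, and neither motif contains the other. The *Sfrp2* window was 63.6% G or C with 16 CpG dinucleotides and the *Dkk2* window 55.6% with 7, beside a median of 52.4% G or C over all windows. The table also held windows for *Sfrp5*, *Dkk1*, *Wif1* and *Frzb*, 6 members in all, of which *Sfrp5* held 1 GTCTG and the other three held none of these sequences.

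The libraries held 11885461 to 43571007 counts (median 19415320), so 3 counts, the limit below which a count of 0 cannot be told from a low level, were 0.0689 to 0.252 CPM, the count of a gene per 1000000 counts of its library. *Smad4* mRNA went against the labels: it was 77.9 to 132 CPM in the 18 libraries labelled Smad4OFF and 14.4 to 23.2 CPM in the 17 labelled Smad4ON, with no overlap, so groups are called by their label throughout. An exchange of the 2 labels would turn the sign of every difference between them given here, and the sources used here do not settle it. All 8 carcinoma cell markers (such as *Krt19* and *Epcam*) had over 3 counts in every library, and so did all 12 fibroblast markers (such as *Col1a1*, *Dcn* and *Pdgfra*). The summed fibroblast level was 9930 to 26471 CPM in the 10 pancreas libraries and 158 to 4584 CPM in the liver and lung libraries, apart from 1 liver library labelled Smad4OFF on day 7 (replicate 2), the only one labelled paired-end, which had 31255 CPM. That library also had 308 CPM of acinar markers against 4.96 CPM in the other library of its group, and its hepatocyte markers, at 1.41 CPM, were the lowest of all 35 libraries, beside 17.1 to 133 CPM in the other 10 liver libraries and 1.51 to 11.9 CPM in the pancreas. Whether its organ label is right cannot be told from these values, so results that rest on it are given with and without it, and with it they may not describe the liver alone. In 10 libraries of the liver and lungs *mt-Co3* had counts, and in the other 25 it had none.

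**Figure D1:**
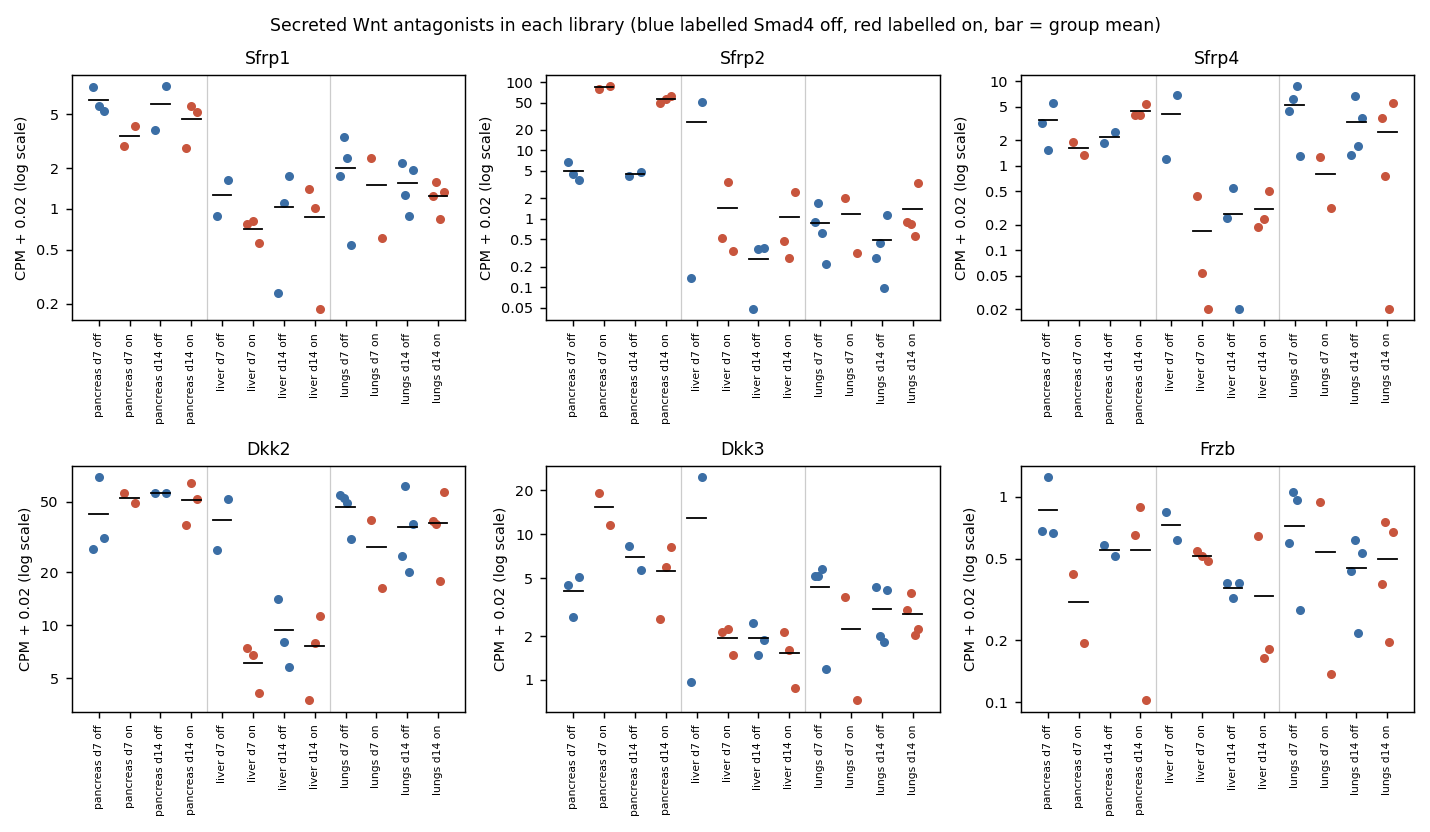
Level of 6 secreted Wnt antagonists in each of 35 libraries. Each panel is a gene, each point a library (vertical axis CPM + 0.02, log scale), grouped along the horizontal axis by organ, day (d) and *Smad4* label, and each bar is the mean of its group. *Sfrp2* separates the pancreas libraries labelled on (49.9 to 88.3 CPM) from those labelled off (3.71 to 6.76 CPM), and *Dkk2* is low in most liver libraries.

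Per length, *Dkk2* was the most abundant member. Its median over the 35 libraries was 10.0 CPM per kb of transcript, followed by *Dkk3* (0.798), *Sfrp2* (0.412), *Sfrp1* (0.370), *Sfrp4* (0.361), *Frzb* (0.158), *Wif1* (0.0384), *Sfrp5* (0.0245) and *Dkk1* (0). The ranges overlapped widely between neighbours: *Sfrp1* ran from 0.0371 to 1.85 CPM per kb and *Sfrp4* from 0 to 2.12. *Sfrp2* spanned the widest range of levels, from 0.0129 to 41.0 CPM per kb, and its highest library exceeded the highest of *Dkk2* (18.7 CPM per kb). The first 6 of this order were tested in most comparisons, while *Sfrp5*, *Dkk1* and *Wif1* passed the filter on low counts in none of the 14 comparisons.

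The 3 members near the detection limit were seen in few libraries. *Dkk1*, the best known Lrp5 and Lrp6 blocker, had 0 counts in 33 of 35 libraries, 1 count in lungs day 7 labelled off replicate 3 and 4 counts in lungs day 7 labelled on replicate 2. *Sfrp5* had over 3 counts in 8 libraries, at most 9 (0.322 CPM, liver day 7 labelled on replicate 3). *Wif1* had over 3 counts in 13 libraries, at most 13 (0.660 CPM, lungs day 14 labelled on replicate 1). It had over 3 counts in 8 of the 14 lung libraries, 4 of the 10 pancreas libraries and 1 of the 11 liver libraries. At this depth no difference between labels was tested for these 3 genes.

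In primary tumors of day 7, the question was which genes differed when the *Smad4* label changed. *Sfrp2*, an Sfrp known for binding Wnt ligands, was 6.76, 4.52 and 3.71 CPM in the 3 libraries labelled off (112, 81 and 63 counts) and 79.1 and 88.3 CPM in the 2 labelled on (1182 and 1527 counts). Every library labelled on lay above every library labelled off. The log2 fold change was 4.04 (SE 0.22), or 16.5-fold, with an adjusted p of 0.00325 (edgeR quasi-likelihood test, Benjamini-Hochberg adjustment over all genes tested). *Dkk3* was 4.47, 2.68 and 5.07 CPM labelled off and 19.2 and 11.5 CPM labelled on, also without overlap. Its log2 fold change was 1.90 (SE 0.34, adjusted p = 0.0479, edgeR), and leaving out any 1 of the 5 libraries ended this call (adjusted p 0.0611 to 0.196).

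The other members of day 7 primary tumors did not pass the test. *Sfrp1* was 7.91, 5.75 and 5.30 CPM labelled off and 2.88 and 4.05 CPM labelled on, and the groups did not overlap, with a log2 fold change of -0.89 (SE 0.29, adjusted p = 0.136 by edgeR). *Frzb* was 0.664, 1.23 and 0.648 CPM labelled off and 0.401 and 0.173 CPM labelled on, at log2 -1.59 (SE 0.63, adjusted p = 0.196 by edgeR). *Sfrp4* was lower by log2 -1.12 (SE 0.58, adjusted p = 0.299 by edgeR) with overlapping groups. *Dkk2*, the most abundant member, was 26.9, 69.1 and 31.1 CPM labelled off and 56.0 and 49.0 CPM labelled on, so the groups overlapped (log2 0.28, SE 0.45, adjusted p = 0.755 by edgeR). In all, 2 of the 6 members tested were called, against 1.33% of the 14439 genes tested. The median log2 fold change of the 6 was -0.30, beside 0.01 over all genes.

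In primary tumors of day 14, *Sfrp2* was 4.24 and 4.88 CPM in the libraries labelled off (121 and 157 counts) and 49.9, 55.7 and 63.1 CPM in those labelled on (711, 699 and 770 counts). The groups were again far apart, and the log2 fold change was 3.52 (SE 0.15), or 11.5-fold (adjusted p = 5.4e-05, edgeR). In a single fit of all 12 groups, which takes its spread from the liver and lung libraries too, the fold changes of *Sfrp2* stayed at log2 4.04 on day 7 and 3.5 on day 14 but the adjusted p became 0.176 and 0.409. *Dkk3* was not apart on day 14: it was 8.26 and 5.68 CPM labelled off and 2.60, 5.97 and 8.20 CPM labelled on (log2 -0.42, SE 0.44, adjusted p = 0.586 by edgeR). *Sfrp4* was 1.82 and 2.48 CPM labelled off and 3.93, 3.98 and 5.41 CPM labelled on. These groups did not overlap, and the log2 fold change of 0.94 (SE 0.29) had an adjusted p of 0.0721 (edgeR). Leaving out 1 library gave a call in 1 of 5 fits, without labelled on replicate 1 (log2 1.01, adjusted p = 0.0241, edgeR). The other 4 fits gave no call, and over all 5 the log2 fold change ran from 0.74 to 1.17. *Sfrp1* (log2 -0.48, SE 0.41) and *Dkk2* (log2 -0.24, SE 0.21) had overlapping groups. Of 5 members tested 1 was called, against 4.64% of the 14234 genes tested, with a median log2 fold change of -0.24 beside 0.02 over all genes.

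The fibroblast marker level was read beside *Sfrp2* because the pancreas libraries held most of it. On day 7 it was 12510 to 18001 CPM labelled off and 25253 to 26471 CPM labelled on, while on day 14 it was 12542 to 12862 CPM labelled off and 9930 to 19663 CPM labelled on, so the groups overlapped on day 14. Of the 12 fibroblast markers 3 were called higher labelled on, on day 7 (*Col3a1*, *Pdgfra* and *Fbln1*), beside 1.33% of all genes tested. On day 14 it was 2 (*Col1a2* and *Fbln1*), beside 4.64%. These markers are named after their values were seen, while the sums above hold all 12. Per 1000 CPM of fibroblast markers, *Sfrp2* was 0.376, 0.362 and 0.218 CPM in the day 7 libraries labelled off and 2.99 and 3.5 in those labelled on. On day 14 it was 0.329 and 0.389 labelled off and 5.02, 3.72 and 3.21 labelled on. The pancreas libraries of the 2 labels did not overlap on this scale either. Outside the pancreas, *Sfrp2* counts were mostly few and the ratio ran from 0.0739 to 4.41. There too it was higher labelled on without overlap in lungs day 7 (0.388 to 1.52 off, 1.85 and 4.41 on). The same held in lungs day 14 (0.467 to 1.38 off, 1.39 to 1.99 on) and liver day 14 (0.0739 to 0.205 off, 0.406 to 1.18 on). In liver day 7 the labels overlapped, at 0.333 and 1.63 (paired-end) off and 0.458 to 2.27 on. In bulk libraries, fewer cells of a type and less RNA per cell cannot be told apart. The summed carcinoma cell markers were 2707 to 4159 CPM labelled off and 3719 to 4835 CPM labelled on, on day 7, and 4443 to 4681 against 5993 to 8311 CPM on day 14. Smooth muscle and pericyte markers moved the other way, at 993 to 1299 CPM labelled off and 521 to 900.0 CPM labelled on, on day 7, and 1057 to 1194 against 303 to 550.3 CPM on day 14. Acinar markers were 1828 to 2978 CPM labelled off and 684 to 957 CPM labelled on, on day 7, and overlapped on day 14. The part of these markers in the *Sfrp2* values was not tested.

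**Figure D2:**
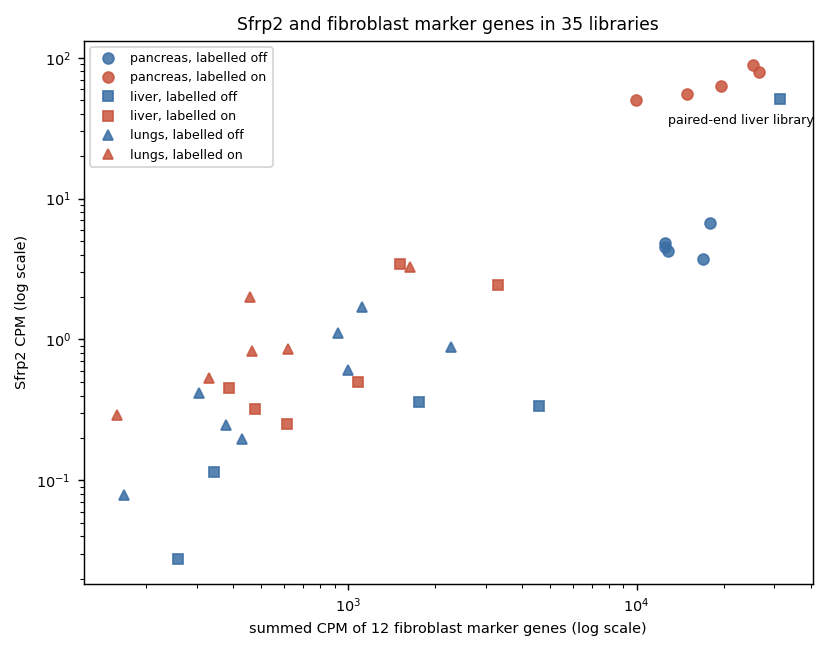
*Sfrp2* level (vertical axis, CPM, log scale) against the summed level of 12 fibroblast marker genes (horizontal axis, CPM, log scale), with 1 point for each of the 35 libraries, colour for the *Smad4* label and shape for the organ. The 5 pancreas libraries labelled on (49.9 to 88.3 CPM of *Sfrp2*) lie above the 5 labelled off (3.71 to 6.76 CPM) while their fibroblast marker sums are 9930 to 26471 CPM and 12510 to 18001 CPM.

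In liver metastases of day 7, *Dkk2* was 26.8 and 51.8 CPM in the 2 libraries labelled off (1166 and 1473 counts) and 7.39, 6.78 and 4.08 CPM in the 3 labelled on (282, 206 and 114 counts). The groups did not overlap. The log2 fold change of -2.89 (SE 0.44) had an adjusted p of 0.0562 (edgeR), just outside the threshold of 0.05. Without the paired-end library it was -2.20 (SE 0.36) with an adjusted p of 0.0406, which passed, but then a single library stands for the labelled off group and is taken to vary like the other group. Carcinoma cell markers went the opposite way to *Dkk2*, at 3465 CPM in the paired-end library and 12640 CPM in the other one labelled off, and 16281 to 17242 CPM labelled on. Hepatocyte markers were also higher labelled on, at 1.41 and 17.1 CPM labelled off and 57.5 to 133 CPM labelled on, and so were leukocyte markers, at 14.2 and 12.1 CPM against 33.4 to 49.4 CPM. The part of these markers in the *Dkk2* values was not tested.

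The other members of day 7 liver metastases turned on the paired-end library. *Sfrp2* was 0.115 CPM in the single-end library labelled off, 51.1 CPM in the paired-end one and 0.498, 3.42 and 0.322 CPM labelled on, so the paired-end library alone lay above all others. Its log2 fold change was -4.45 (SE 2.15, adjusted p = 0.259 by edgeR) with that library and 3.51 (SE 1.82, adjusted p = 0.288) without it. *Dkk3* likewise was 0.941 and 24.7 CPM labelled off and 2.12, 2.21 and 1.47 CPM labelled on, at log2 -2.98 (SE 1.23, adjusted p = 0.2 by edgeR) with it and 0.97 (SE 0.51, adjusted p = 0.29) without it. *Sfrp4* was 1.19 and 6.89 CPM labelled off and 0.419, 0.0329 and 0 CPM labelled on. For *Sfrp4* both libraries labelled off lay above all 3 labelled on, with a log2 fold change of -4.88 (SE 1.56, adjusted p = 0.127 by edgeR), and -2.95 (SE 1.48, adjusted p = 0.277) without the paired-end library. *Sfrp1* and *Frzb* also had lower means labelled on, at log2 -1.02 (SE 0.52) and -0.67 (SE 0.44), and neither passed.

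No member was thus called in day 7 liver metastases by edgeR, where 0.444% of 16007 genes were. Of the 6 tested, 2 (*Sfrp4* and *Dkk2*) had an unadjusted p under 0.05, as did 4340 of all genes. DESeq2 called 3 (*Sfrp4*, *Dkk2* and *Dkk3*), where it called 2842 of all genes. All 6 log2 fold changes were negative, with a median of -2.94 beside -0.06 over all genes. Leaving out either library labelled off left a single library for its group, so members called then are not counted here. Without the paired-end library the log2 fold changes were -2.95 for *Sfrp4*, -2.20 for *Dkk2*, -0.80 for *Frzb* and -0.39 for *Sfrp1*. Those of *Sfrp2* and *Dkk3* turned to 3.51 and 0.97.

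In liver metastases of day 14 the labels overlapped for the most abundant members. *Dkk2* was 14.1, 8.05 and 5.80 CPM labelled off and 3.72, 7.88 and 11.2 CPM labelled on (log2 -0.39, SE 0.54, adjusted p = 0.872 by edgeR). *Dkk3* was 2.43, 1.47 and 1.85 CPM labelled off and 2.10, 1.58 and 0.865 CPM labelled on, and *Sfrp1* was 0.221, 1.09 and 1.75 CPM against 1.39, 1.00 and 0.162 CPM. *Sfrp2*, too low to be tested there, was 0.0277 to 0.360 CPM labelled off and 0.251 to 2.43 CPM labelled on. None of the 3 members tested was called, none had an unadjusted p under 0.05, and DESeq2 called 0 of them. The share of all genes called was 0% (0 of 14947 by edgeR, 1447 at an unadjusted p under 0.05, and 332 by DESeq2).

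In lung metastases no member was called on either day. On day 7 *Sfrp4* was 4.38, 6.18, 8.87 and 1.30 CPM in the 4 libraries labelled off and 1.26 and 0.293 CPM in the 2 labelled on. These groups did not overlap, though the lowest labelled off and the highest labelled on nearly met, and the log2 fold change of -2.67 (SE 0.88) had an adjusted p of 0.908 (edgeR). *Dkk2* was 54.4, 52.8, 49.5 and 30.8 CPM labelled off and 39.5 and 16.2 CPM labelled on, which overlapped. *Sfrp2*, by contrast with the pancreas, was 0.195 to 1.70 CPM labelled off and 0.293 and 2.02 CPM labelled on. Of the 6 members tested 1 (*Sfrp4*) had an unadjusted p under 0.05 and DESeq2 called 0, while of 15193 genes 0% were called by edgeR (0, with 793 at an unadjusted p under 0.05 and 100 by DESeq2).

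On day 14 the lung libraries of the 2 labels overlapped for *Dkk2*, at 24.6, 61.7, 20.1 and 37.2 CPM labelled off and 39.1, 37.5, 17.9 and 56.5 CPM labelled on (log2 0.04, SE 0.40). *Sfrp2* was 0.248, 0.419, 0.0787 and 1.12 CPM labelled off and 0.863, 0.830, 0.531 and 3.28 CPM labelled on. The highest labelled off exceeded 3 of the 4 labelled on, and the log2 fold change of 1.49 (SE 0.83) had an adjusted p of 0.618 (edgeR). Of 6 members tested none was called, none had an unadjusted p under 0.05 and DESeq2 called 0, where 0.0271% of 14751 genes were called (4). With the library number as a block 109 genes and again 0 members were called.

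**Figure D3:**
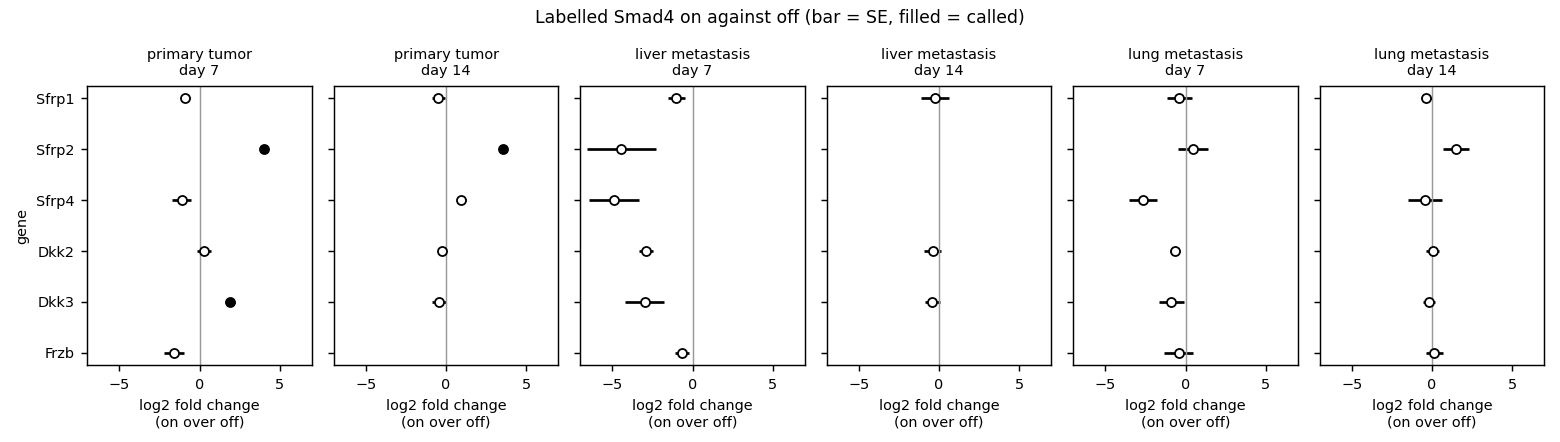
Log2 fold change of 6 secreted Wnt antagonists between libraries labelled *Smad4* on and off, with 1 panel for each organ and day. Points are edgeR estimates on the horizontal axis (log2, on over off), bars are their SE, and filled points passed a fold of 2 and an adjusted p of 0.05. Filled points are *Sfrp2* (4.04) and *Dkk3* (1.90) in primary tumors of day 7 and *Sfrp2* (3.52) in those of day 14.

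Whether the response differed between liver and lungs was tested directly, as the log2 fold change in the liver minus that in the lungs. On day 7 *Dkk2* had the smallest p of the members, with a difference of -2.15 (SE 0.54, adjusted p = 0.0662 by edgeR), and it did not pass. Without the paired-end library the difference was -1.49 (SE 0.52, adjusted p = 0.185). *Sfrp2* differed by -4.82 (SE 2.32, adjusted p = 0.273) with that library and by 3.07 (SE 2.07, adjusted p = 0.481) without it. None of 6 members was called against 1.86% of 16369 genes. At an unadjusted p under 0.05 there was 1 (*Dkk2*), beside 3450 of all genes, and DESeq2 called 1 (*Dkk2*), beside 1879 of all genes. Without the single-end liver library labelled off of day 7, the paired-end one alone stood for its group, so calls of that fit are not counted here. Over the 11 fits that left out 1 library, the difference for *Dkk2* ran from -2.58 to -1.49. On day 14 none of 6 members was called, none had an unadjusted p under 0.05 and DESeq2 called 0, where 0% of 15869 genes were called (0 by edgeR, 478 at an unadjusted p under 0.05, and 4 by DESeq2).

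The organs were compared next, with both days together and day as a covariate. The 3 organ comparisons within a label share libraries, so their values are set side by side only. Among libraries labelled Smad4ON, *Sfrp2* set the pancreas apart: it was 49.9 to 88.3 CPM (median 63.1) in the 5 pancreas libraries, 0.251 to 3.42 CPM in the 6 liver libraries and 0.293 to 3.28 CPM in the 6 lung libraries. No library of the liver or lungs came near the pancreas range. Its log2 fold change was -5.80 (SE 0.70, adjusted p = 1.09e-05, edgeR) in liver against pancreas and -5.63 (SE 0.70, adjusted p = 4.82e-05, edgeR) in lungs against pancreas. Between liver and lungs it was -0.17 (SE 0.67), and the 2 organs overlapped.

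*Dkk2* followed another order, with the liver apart from both other organs. It was 37.2 to 63.6 CPM in pancreas libraries labelled on, 16.2 to 56.5 CPM in lung libraries and 3.72 to 11.2 CPM in liver libraries. No liver library reached the lowest of either other organ. The log2 fold change was -2.87 (SE 0.32, adjusted p = 5.9e-06, edgeR) in liver against pancreas and -2.24 (SE 0.31, adjusted p = 0.000253, edgeR) in liver against lungs. In lungs against pancreas it was -0.63 (SE 0.30, adjusted p = 0.132, edgeR) and the groups overlapped. *Dkk2* in liver against lungs was also called on each day alone and with each library left out in turn.

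*Sfrp1*, *Sfrp4* and *Dkk3* completed the calls among libraries labelled on. *Sfrp1* was 2.81 to 5.73 CPM in the pancreas, 0.162 to 1.39 CPM in the liver and 0.586 to 2.36 CPM in the lungs, with the pancreas above both (log2 -2.34, SE 0.41, adjusted p = 0.000264 for liver, and -1.67, SE 0.41, adjusted p = 0.00625 for lungs, edgeR). *Dkk3* was 2.60 to 19.2 CPM in the pancreas, 0.865 to 2.21 CPM in the liver and 0.703 to 3.96 CPM in the lungs. It was lower in liver (log2 -2.38, SE 0.43, adjusted p = 0.000311, edgeR) and in lungs (log2 -1.72, SE 0.44, adjusted p = 0.008, edgeR) than in pancreas, and only the liver did not overlap with the pancreas. *Sfrp4* was 1.33 to 5.41 CPM in the pancreas, 0 to 0.487 CPM in the liver and 0 to 5.55 CPM in the lungs. It was lower in liver than in pancreas (log2 -3.60, SE 0.90, adjusted p = 0.00434, edgeR) without overlap, and lower in liver than in lungs (log2 -2.72, SE 0.89, adjusted p = 0.0397, edgeR) with overlap. The last call was lost when any of 11 of the 17 libraries was left out (pancreas day 7 replicate 1; pancreas day 14 replicates 1, 2 and 3; liver day 7 replicates 2 and 3; liver day 14 replicates 1 and 2; lungs day 7 replicate 1; lungs day 14 replicates 1 and 4), at adjusted p 0.051 to 0.0865.

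In counts, 5 of 6 members tested were called in liver against pancreas labelled on, all lower, against 22.1% of 15377 genes. In lungs against pancreas labelled on it was 3 of 6, all lower, against 13.4%, and in liver against lungs labelled on 2 of 6, both lower, against 10.4%. The median log2 fold changes were -2.63, -1.28 and -0.66 in that order, beside 0.04, 0.04 and 0.01 over all genes. *Frzb* was not called in any of them. The fibroblast markers moved with the pancreas: all 12 were lower in liver than in pancreas and all 12 lower in lungs, labelled on, with median log2 fold changes of -4 and -5.19, and 7 and 2 of the 8 carcinoma cell markers were higher. Between liver and lungs labelled on, 6 of 12 fibroblast markers were higher in the liver, where *Dkk2* and *Sfrp4* were lower. The part of the fibroblast markers in these organ differences was not tested.

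**Figure D4:**
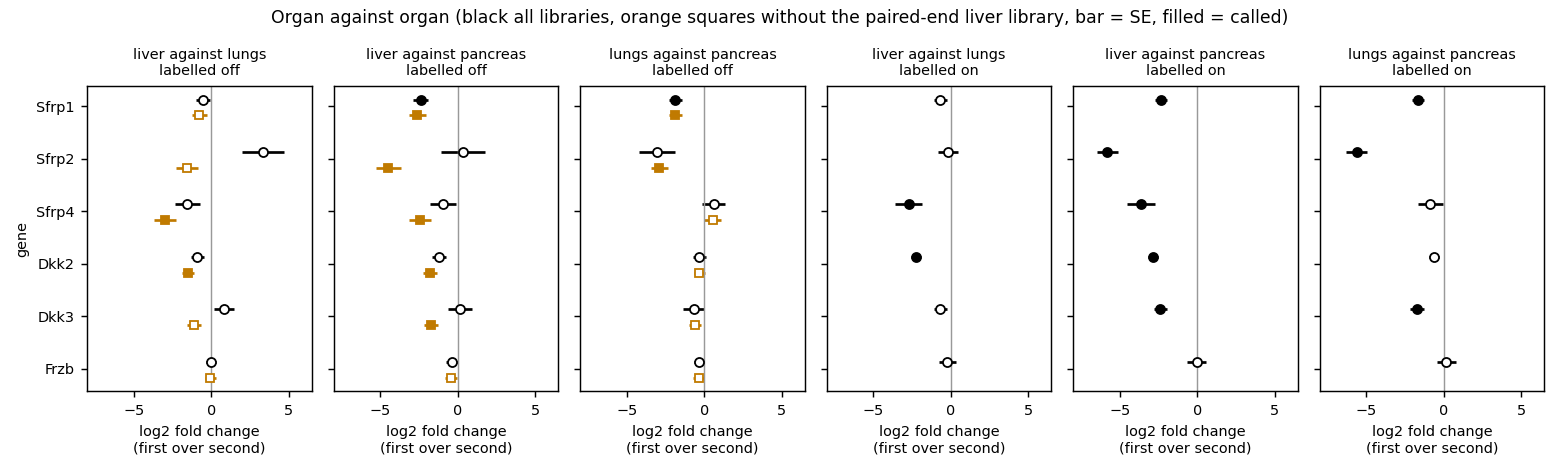
Log2 fold change of 6 secreted Wnt antagonists between organs, within libraries labelled off (3 panels on the left) and on (3 panels on the right). Points are edgeR estimates (horizontal axis, log2, first organ over second), bars are SE, and filled symbols passed the thresholds. Orange squares leave out the paired-end liver library, which moved *Sfrp2* in liver against pancreas labelled off from 0.32 to -4.47.

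Among libraries labelled Smad4OFF the pancreas was apart for *Sfrp1*, at 3.78 to 8.11 CPM in 5 libraries against 0.221 to 1.75 CPM in 5 liver libraries and 0.521 to 3.4 CPM in 8 lung libraries. No library of either other organ reached the pancreas range. The log2 fold change was -2.40 (SE 0.49, adjusted p = 0.00634, edgeR) for liver and -1.87 (SE 0.41, adjusted p = 0.00241, edgeR) for lungs. *Sfrp2* was 3.71 to 6.76 CPM in the pancreas and 0.0787 to 1.70 CPM in the lungs, with a log2 fold change of -3.03 (SE 1.15, adjusted p = 0.0513, edgeR), which passed when any of 6 libraries was left out (both liver libraries of day 7, all 3 liver libraries of day 14, or lungs day 14 replicate 4). In the liver libraries labelled off, *Sfrp2* was 0.0277 to 0.360 CPM in 4 and 51.1 CPM in the paired-end one. With that library the liver to pancreas difference was 0.32 (SE 1.42) and without it -4.47 (SE 0.80, adjusted p = 0.000569, edgeR).

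*Dkk2* labelled off was 26.9 to 69.1 CPM in the pancreas, 20.1 to 61.7 CPM in the lungs, 5.80 to 26.8 CPM in 4 liver libraries and 51.8 CPM in the paired-end one. With all libraries it was not called, at log2 -0.89 (SE 0.44, adjusted p = 0.256, edgeR) against lungs and -1.21 (SE 0.48, adjusted p = 0.0947, edgeR) against pancreas. Without the paired-end library both were called, at -1.48 (SE 0.40, adjusted p = 0.0289) and -1.79 (SE 0.42, adjusted p = 0.0046). *Sfrp4* was then also lower in liver than in lungs (log2 -2.97, SE 0.70, adjusted p = 0.0171, edgeR).

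In counts labelled off, 1 of 6 members (*Sfrp1*) was called in liver against pancreas, against 8.79% of 15305 genes, and 1 of 6 (*Sfrp1*) in lungs against pancreas, against 18.3%. In liver against lungs 0 of 6 were called, against 3.87%. At an unadjusted p under 0.05 there was 1 (*Sfrp2*), beside 3230 of all genes, and DESeq2 called 1 (*Sfrp2*), beside 913 of all genes. For *Sfrp2* the sign turned on the paired-end library: the log2 fold change was 3.35 (SE 1.33, adjusted p = 0.155, edgeR) with it and -1.56 (SE 0.73, adjusted p = 0.196, edgeR) without it. Without the paired-end library these counts were 5 (*Sfrp1*, *Sfrp2*, *Sfrp4*, *Dkk2* and *Dkk3*, all lower in liver), 2 (*Sfrp1* and *Sfrp2*) and 2 (*Sfrp4* and *Dkk2*), beside 15.9%, 19.5% and 4.32% of the genes tested. *Frzb* was not called in any organ comparison, and its group means ran only from 0.287 to 0.847 CPM over the 12 groups.

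The rest of the Wnt pathway was read from 6 lists of genes. Of 19 Wnt ligands, 10 were tested in day 7 primary tumors and 2 were higher labelled on (*Wnt4* and *Wnt5b*), and on day 14 2 of 11 were higher (*Wnt4* and *Wnt5b*) and 2 lower (*Wnt5a* and *Wnt9a*), beside 1.33% and 4.64% of all genes tested. *Wnt4* was 6.2 to 8.27 CPM labelled off and 25.3 and 49.7 CPM labelled on, on day 7 (log2 2.40, SE 0.31, adjusted p = 0.0306, edgeR), and 7.00 and 9.10 against 44.5 to 54.2 CPM on day 14 (log2 2.56, SE 0.15, adjusted p = 0.000246, edgeR). The day 7 call was lost without any 1 library labelled off (adjusted p up to 0.107, edgeR) and also without labelled on replicate 1. The day 14 call was kept when each library labelled on was left out in turn. Without either day 14 library labelled off, 1 library stood for that group, so calls kept in those fits are not counted here. *Wnt9a* was lost without either day 14 library labelled off or labelled on replicate 1. *Wnt4* rose with *Sfrp2* in the pancreas. It was also higher in day 7 liver metastases labelled on (log2 3.41, SE 0.28, adjusted p = 0.0477, edgeR), where *Sfrp2* was not called. *Wnt5a*, which mostly acts without beta-catenin, fell in day 14 primary tumors (log2 -1.19, SE 0.10, adjusted p = 0.000812, edgeR) and in day 7 liver metastases labelled on (log2 -2.96, SE 0.31, adjusted p = 0.0477, edgeR), beside the lower *Dkk2* values there. In the liver the log2 fold changes without the paired-end library were 3.43 for *Wnt4* and -2.60 for *Wnt5a*. Leaving out either library labelled off left a single library for its group, so calls of those fits are not counted here. Both liver calls were lost without any 1 library labelled on (adjusted p up to 0.242, edgeR). The liver response of day 7 differed from that of the lungs for *Wnt4* (2.92, SE 0.60, adjusted p = 0.0464, edgeR) and *Wnt5a* (-2.56, SE 0.36, adjusted p = 0.0372, edgeR). Without the paired-end library the differences were 2.92 and -2.23, with a single liver library labelled off. The other fits that left a single library in a group are not counted here either. The call of *Wnt4* was lost without any 1 liver library labelled on or any 1 lung library labelled off. The call of *Wnt5a* was lost in the same fits, except the one without lungs labelled off replicate 4.

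Of 18 Wnt receptors and co-receptors, 0 of 15 were called by edgeR in day 7 primary tumors (4 at an unadjusted p under 0.05), 0 of 14 on day 14 (7 at that p) and 1 of 17 (*Fzd5*, higher, named after its values were seen) in day 7 liver metastases, beside 0.444% of all genes. The call of *Fzd5* (log2 1.88, and 1.91 without the paired-end library) was lost without any 1 library labelled on (adjusted p up to 0.242, edgeR). Across organs labelled on, 7 of 16 were lower in liver than in pancreas, *Fzd1* and *Ror2* among them, and 1 was higher (*Fzd5*), beside 22.1% of all genes called in either direction. Of 7 R-spondins and their Lgr receptors, 4 were tested in day 7 primary tumors and 0 called by edgeR (2 at an unadjusted p under 0.05). *Lgr4* was 38.0 and 16.8 CPM in day 7 liver libraries labelled off and 159 to 238 CPM in those labelled on, without overlap, at log2 2.70 (SE 0.40, adjusted p = 0.0562, edgeR). Without the paired-end library the log2 fold change of *Lgr4* was 2.29. That fit has a single library labelled off, so its call is not counted here. Its liver response minus that of the lungs was 3.37 (SE 0.56, adjusted p = 0.0372, edgeR), which was called, where 1.86% of all genes were. Without the paired-end library it was 2.95. Among the fits that kept 2 or more libraries in each group, the call was kept only without lungs labelled off replicate 4. Labelled on, *Lgr4* was higher in liver (log2 2.37, SE 0.30, adjusted p = 1.6e-05, edgeR) and in lungs (log2 1.19, SE 0.28, adjusted p = 0.00578, edgeR) than in pancreas, opposite to *Sfrp1*, *Sfrp2* and *Dkk3*, while *Lgr5* was lower in liver than in both other organs.

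Among 11 other extracellular inhibitors none was called between labels in any organ or day by edgeR, while 3 of 6 in day 7 primary tumors and 4 of 5 in day 7 liver metastases had an unadjusted p under 0.05. *Apcdd1*, a membrane-bound inhibitor, was higher labelled on in day 7 primary tumors by log2 0.84 (SE 0.10, adjusted p = 0.0181, edgeR), or 1.80-fold, and was not called because its fold was under 2. Labelled on, *Igfbp4*, which can block Wnt receptors, was lower in liver (log2 -2.19, SE 0.21, adjusted p = 2.35e-06, edgeR) and in lungs (log2 -1.13, SE 0.21, adjusted p = 0.00109, edgeR) than in pancreas, and *Apcdd1* was lower in liver than in both. Of 20 genes of Wnt secretion and signal transduction, 0 were called by edgeR between labels in any of the 6 organ and day groups, with 0 to 6 at an unadjusted p under 0.05. In liver against pancreas labelled on 4 of 20 were called, all lower, a share near the 22.1% of all genes and so not a result about the list. They included *Wls*, the carrier that brings Wnt ligands to the cell surface, and *Pygo1*, a beta-catenin cofactor.

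Of 18 beta-catenin target genes, 17 were tested in day 7 primary tumors and 2 were higher labelled on, *Axin2* and *Nkd2*, both of them feedback inhibitors, beside 1.33% of all genes. *Axin2* was 21.7 to 26.9 CPM labelled off and 52.0 and 62.1 CPM labelled on (log2 1.23, SE 0.15, adjusted p = 0.0189, edgeR), and *Nkd2* was 10.3 to 17.2 against 54.1 and 87.7 CPM (log2 2.23, SE 0.32, adjusted p = 0.0383, edgeR). Fibroblast marker sums were also higher labelled on in these libraries (12510 to 18001 against 25253 to 26471 CPM), while smooth muscle and acinar markers were lower. The part of these markers in the *Axin2* and *Nkd2* values was not tested. The call of *Nkd2* was lost without any 1 of the 5 libraries (adjusted p 0.0522 to 0.144), and that of *Axin2* without labelled off replicate 3 or either library labelled on (adjusted p up to 0.124). On day 14, with *Sfrp2* still higher, *Axin2* was 38.1 and 47.2 CPM labelled off and 28.7 to 40.0 CPM labelled on, which overlapped (log2 -0.37, SE 0.16, adjusted p = 0.175, edgeR), and 3 of 17 targets were higher (*Rnf43*, *Sp5* and *Cldn2*, named after their values were seen), beside 4.64% of all genes. *Rnf43* was kept when each library labelled on was left out in turn. *Sp5* was lost without either library labelled off or labelled on replicate 2, and *Cldn2* without either library labelled off. Leaving out a library labelled off left 1 in that group, so calls kept then are not counted here. In the liver and lungs 0 of 16 or 17 targets were called between labels by edgeR, with 0 to 6 at an unadjusted p under 0.05. The median log2 fold change of the list was 0.84 on day 7 and 0.19 on day 14 in primary tumors. Labelled on, 8 of 17 targets, *Axin2* and *Nkd2* included, were lower in liver than in pancreas and 1 was higher (*Rnf43*), beside 22.1% of all genes. The organ differences labelled on of *Fzd1*, *Ror2*, *Lgr4*, *Lgr5*, *Igfbp4*, *Apcdd1*, *Wls*, *Pygo1*, *Axin2* and *Nkd2* given here stayed called without each of the 17 libraries.

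**Figure D5:**
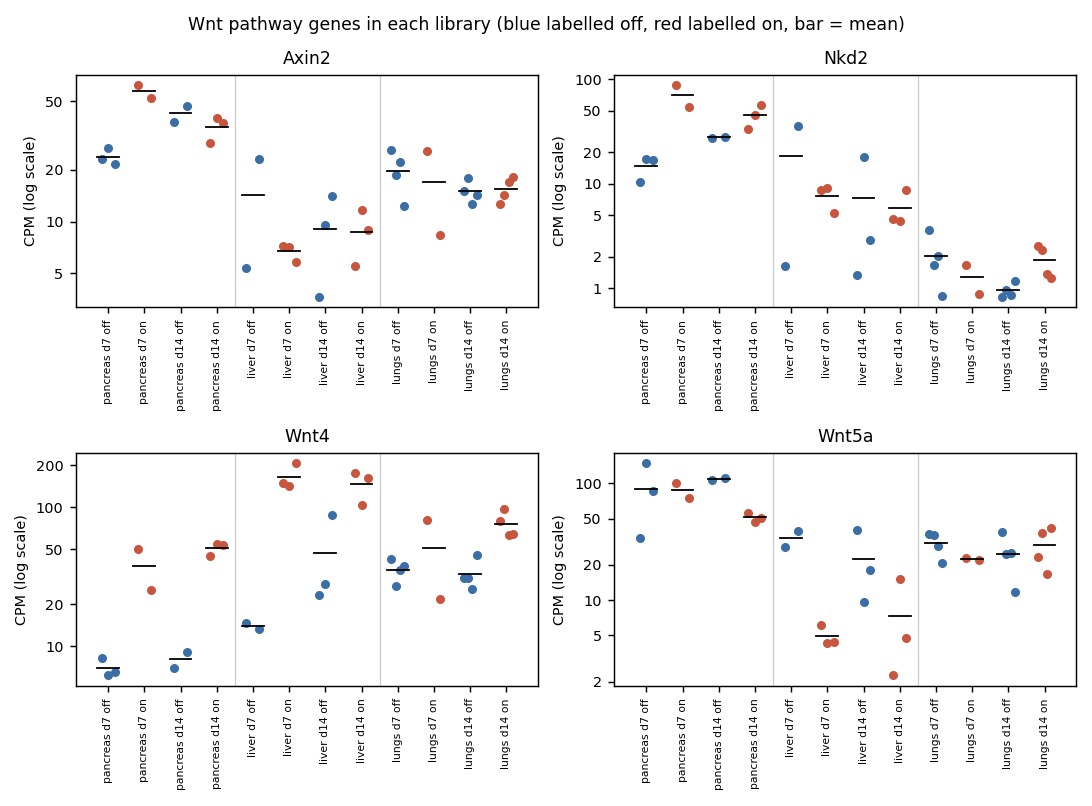
Levels of 4 Wnt pathway genes in each library (vertical axis CPM, log scale), grouped by organ, day (d) and *Smad4* label along the horizontal axis, with bars for group means. The targets *Axin2* and *Nkd2* and the ligand *Wnt4* are higher in the 2 day 7 pancreas libraries labelled on than in the 3 labelled off, and *Wnt5a* is lower in the 3 day 7 liver libraries labelled on (4.28 to 6.15 CPM) than in the 2 labelled off (28.6 and 39.1 CPM).

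The genes most like each member over all 35 libraries were found by Pearson's r of log2(CPM + 0.5) among 12942 genes with a median of at least 1 CPM, as a description in which the points share organ, label and cell makeup. *Sfrp1* was most like *Aldh1a2* (r = 0.897), *Prkd1* (0.888) and *Rbfox2* (0.879). *Dkk2* was most like *Pros1* (0.919), *C1qtnf1* (0.898) and *Spp1* (0.896). *Sfrp4* was most like *Srpx2* (0.827), *Dkk2* itself (0.817) and *Pros1* (0.809), so *Dkk2* and *Sfrp4* had the closest pattern within the family. *Dkk3* was most like *Tctn1* (0.849), *Smg6* (0.844) and *Igf1* (0.836). The median of *Sfrp2* was 0.886 CPM, under the limit for this search.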

How the data were processed

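mKate2+ cells sorted from 35 mouse tumors were profiled by poly(A) RNA-seq (TruSeq Stranded, 75-bp single-end reads on a HiSeq, with 1 library labelled paired-end). The deposited values are raw gene counts that the authors made with FastQC 0.11.5, Trimmomatic 0.36, STAR 2.5.3a and featureCounts 1.6.3 on GRCm38/mm10, per the submitters' processing notes. The strand setting of the counting was not given in the sources used here. Part of the genotype of the tumor cells is not reported here. Each library is numbered as a separate mouse in its label, and 0 columns of the table were left unused.

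Counts were tested with edgeR 4.0.16 in R 4.3.3 (TMM, filterByExpr with a minimum count of 10 and a minimum total of 15, robust quasi-likelihood fit). Genes with a fold above 2 and a Benjamini-Hochberg adjusted p under 0.05 over all genes tested were called. There were 14 comparisons: labelled on against off in 6 organ and day groups, each on its own libraries, 6 between organs within a label with day as a covariate, and 2 of the liver response minus that of the lungs. CPM is the count of a gene per 1000000 counts of its library, and CPM per kb divides it by transcript length. Differences at 3 counts or fewer were read as at the detection limit, which covers counting error only. The depth of 11885461 to 43571007 counts per library sets that limit.

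The members, gene lists and comparisons were chosen with earlier results of these data known. All 9 members were named, with up to 2 genes of each pathway list, those called in the most comparisons and then by lowest adjusted p. Alternatives were DESeq2 1.42.0, its size factors, no filter, at least 10 counts in every library, no fold threshold, a replicate block, a covariate for libraries with *mt-Co3* counts, each day alone, a single fit of 12 groups and leaving out each library. For pathway genes, leaving out each library and the replicate block were chosen after seeing the data. Deviations of same-numbered libraries from their group means had correlations near 0 in primary tumors of day 14 (0.0436 and 0.079). In liver metastases of day 14 they were 0.0371, 0.0328 and 0.475, while labelled off 1 and labelled on 2 had 0.415. On day 7 those of same-numbered libraries ran from -0.319 to 0.395, and both were negative in primary tumors (-0.134 and -0.251). Same-numbered libraries deviated together in every pair of lung metastases of day 14 (0.489, 0.546, 0.635 and 0.566). Differently numbered libraries did so as much there, between 1 and 2 and between 3 and 4 (0.462 to 0.661), and 3 and 4 were those with *mt-Co3* counts, so pairing by number and this split cannot be told apart. The procedures were also run on simulated counts, in which no library was set apart from its group as the paired-end one was. The outcome is not given here, and no result rests on it. Promoter windows came from RefSeq (GRCm38.p6). Figures were drawn with matplotlib 3.10.9 in Python 3.11.15.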

Additional observations from a re-analysis of the deposited data

Results flagged for a closer look

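Of 24 sets of 4 libraries, each a member in a group of 4, 3 held 1 library far from the other three by Dixon's criterion, which chance meets in about 1 set in 20. *Sfrp2* was 3.28 CPM in 1 lung library of day 14 labelled on (replicate 4) and 0.531 to 0.863 CPM in the others, and that library also had the highest fibroblast marker sum of its group, 1646 CPM against 331 to 621 CPM. *Sfrp5* was 0.244 CPM (5 counts) in another library of that group (replicate 2) and 0 in the others. *Dkk3* was 1.17 CPM in 1 lung library of day 7 labelled off (replicate 4) and 5.15 to 5.71 CPM in the others, and it was the only library of its group with *mt-Co3* counts (31.1 CPM) and had the lowest fibroblast sum, 431 CPM. The part of these values in the differences was not tested.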

How the results depend on the processing

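Counts of members called were the same or close in 89 of 122 recomputations under other settings and in 137 of 165 that left out 1 library. A count of 4 for 5, or 2 for 3, was taken as the same and is not among the changes under other settings listed below. Labelled on, *Sfrp4* lost its call in liver against pancreas in 2 of 9 other settings, and *Dkk3* in lungs against pancreas in 2 of 10. In primary tumors of day 7 the 2 calls became 0 with a replicate block (*Sfrp2* 3.89, adjusted p = 0.0707; *Dkk3* 2.08, adjusted p = 0.178, edgeR) and 0 in the single fit of 12 groups, and on day 14 the 1 call became 0 in that fit. Liver day 7 gave 3 with DESeq2, 1 without a filter, 1 with at least 10 counts in every library and 4 in the single fit. Liver against lungs labelled off gave 1 with DESeq2, 1 without a filter and 1 in the single fit. Liver against pancreas labelled off gave 2 with DESeq2, 0 with at least 10 counts, 0 for day 7 alone, 4 for day 14 alone and 2 in the single fit. Lungs against pancreas labelled off gave 2 with DESeq2, the *mt-Co3* covariate, the replicate block or the single fit, and 0 with at least 10 counts or day 7 alone. Labelled on, liver against lungs gave 1 without a filter, with at least 10 counts, with the replicate block and for each day alone, liver against pancreas 2 with at least 10 counts, and lungs against pancreas 1 with at least 10 counts and for day 7 alone. The day 7 response difference gave 1 with DESeq2, no filter, the *mt-Co3* covariate and the single fit. The replicate block changed no other count of members beyond what was taken as the same. For pathway genes, under alternatives chosen after seeing the data, the block left uncalled *Wnt4* (2.29, adjusted p = 0.151), *Wnt5b* (2.76, 0.151), *Axin2* (1.17, 0.238) and *Nkd2* (2.34, 0.28) in primary tumors of day 7, *Sp5* (1.71, 0.0576) on day 14, *Wnt4*, *Wnt5a* and *Fzd5* in liver day 7 (0.223) and *Wnt4*, *Wnt5a* and *Lgr4* in the day 7 response difference (0.383, edgeR). Leaving out 1 library gave 1 to 1 and 1 to 2 in the pancreas (day 7, day 14), 0 to 4 in liver day 7, 0 to 0 in liver day 14 and both lung groups, 0 to 2, 1 to 5 and 1 to 2 between organs labelled off (liver against lungs, liver against pancreas, lungs against pancreas), 1 to 2, 5 to 5 and 3 to 3 labelled on, and 0 to 2 and 0 to 0 for the response differences. Directions turned for *Sfrp2* in liver against lungs labelled off, at -0.99 for day 14 alone and -1.56 without the paired-end library (leaving out 1 library gave -1.56 to 3.92), and for *Dkk2* in liver against pancreas labelled off, at 0.026 for day 7 alone. The cause was not tested. The *mt-Co3* covariate was not run in the pancreas, where no library had such counts.

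Genes called moved more: in primary tumors of day 7 from 192 to 0 with the replicate block, 42 in the single fit, 517 with DESeq2, 549 without a filter and 323 with no fold threshold, and on day 14 from 661 to 16 in the single fit and 1837 with no fold threshold. In liver day 7 they moved from 71 to 2842 with DESeq2, 1022 with the *mt-Co3* covariate, 977 without a filter, 354 with at least 10 counts, 3097 in the single fit and 0 with the replicate block. In lungs day 14 they moved from 4 to 197 with DESeq2, 109 with the block, 127 with the covariate, 23 without a filter and 14 in the single fit, and in lungs day 7 from 0 to 100, 0, 4, 13 and 16. Liver day 14 moved from 0 to 332 with DESeq2, 7 without a filter and 254 in the single fit. Labelled off, liver against lungs moved from 592 to 913 with DESeq2, 246 with at least 10 counts, 926 in the single fit, 69 for day 7 alone and 145 for day 14 alone, liver against pancreas from 1345 to 796 with at least 10 counts, 2351 with no fold threshold and 0 for day 7 alone, and lungs against pancreas from 2805 to 1607, 5238 and 1707, with 1606 for day 14 alone. Labelled on, with at least 10 counts, with no fold threshold, for day 7 alone and for day 14 alone in that order, liver against lungs moved from 1606 to 932, 3278, 1001 and 356, liver against pancreas from 3394 to 2066, 6500, 2880 and 2125, and lungs against pancreas from 2064 to 1066, 4455, 763 and 1204. The response difference moved from 305 to 1879 with DESeq2, 462 without a filter, 0 with the block, 775 with the covariate and 2037 in the single fit on day 7, and from 0 to 4 with DESeq2 on day 14. *Dkk1*, *Sfrp5* and *Wif1* had too few counts to be tested at this depth.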
